A study of Mus musculus with 9 samples.

Results

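Genes of fatty acid oxidation and ketone body formation were followed across 9 liver arrays from mice that did or did not carry a human colon cancer in the cecal wall. The set holds 35 genes listed by their place in the pathway, with no measured value in the rule, though the list was drawn up with earlier results of these data known. A probe set counted as a member where its annotation gave exactly 1 gene and that gene was in the set, which held for 54 of the 20380 probe sets with 1 gene. They cover 34 of the 35 genes. The intensities of Acsl1 are not analysed here. Of the 54 probe sets 53, for 34 genes, were bright enough to be tested, and the brightest of each gene stands for it below. The probe set left out was a second one of Acadl.

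In the liver, fatty acids are taken up, bound, and activated to acyl-CoA in the cytosol, and the carnitine shuttle carries them into mitochondria, where Cpt1a catalyses the rate-controlling step. Mitochondrial beta-oxidation then shortens them to acetyl-CoA and hands electrons to the respiratory chain through electron transfer flavoprotein, and hepatocytes turn much of the acetyl-CoA into ketone bodies during fasting. Peroxisomes shorten very long and dicarboxylic fatty acids with enzymes of their own. Many of these genes are targets of PPARalpha, the nuclear receptor that fatty acids and fasting activate in the liver.

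The mice given a tumour were BALB/c nu/nu males, athymic animals without T cells, 6 weeks of age at implantation of the human colon cancer TK-4 into the cecal wall. They received vehicle (T-Co) or TSU68, an oral inhibitor of the VEGF, PDGF and FGF receptor tyrosine kinases, at 400 mg/kg per day (T-TSU), starting 7 days after implantation and lasting a week. The third group had no tumour and received vehicle (NT-Co). The labels do not state its strain, sex or age on their own, nor a sham operation, so tumour and operation cannot be told apart, and neither feeding state nor hour of collection is given. Mice without tumour on TSU68 are not analysed here. Each group had 3 samples, which the labels number but do not state to be separate animals, so p-values cover the spread among samples, which may be technical.

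Intensities are linear and scaled to a common level on every array, and levels are compared only within a probe set. Array medians were 107 to 119. Of 10 hepatocyte markers 9 were measured, with a summed intensity of 260300 to 279900 in NT-Co, 316400 to 322300 in T-Co and 261300 to 286200 in T-TSU. The summed intensity of the hepatocyte markers was thus higher in every T-Co array than in any other. Kupffer cell and macrophage markers (10 of 10 measured) summed to 8277 to 11390 in NT-Co, 10740 to 15950 in T-Co and 4869 to 10550 in T-TSU. Endothelial markers (8 of 8) summed to 2232 to 2945, 2656 to 4277 and 1852 to 2598 in the same order. Stellate cell markers (8 of 8) summed to 6805 to 7395, 5355 to 6218 and 5997 to 7142, and neutrophil markers (6 of 7) to 528.7 to 790.4, 793.7 to 2115 and 402.6 to 745.3. For both sums the T-Co and NT-Co ranges did not overlap, the stellate sum being lower in T-Co and the neutrophil sum higher. The neutrophil ranges lay close (790.4 against 793.7). Single genes went both ways. The stellate genes Des (log2 difference 1.05 ± 0.61, SE) and Lrat (0.88 ± 0.43) were higher in T-Co. The neutrophil genes Mpo (-0.79 ± 0.81) and Elane (-0.30 ± 0.54) were lower, and none of these was called. The other tested genes of both lists went with the sums. Of single markers, 3 hepatocyte genes and 1 endothelial gene were called higher and 1 stellate gene, the collagen Col3a1, lower in T-Co against NT-Co, and none of the 5 neutrophil genes tested was called. Adipocyte markers lay below the intensity filter for 4 of 4 measured genes, muscle markers for 5 of 6 and lymphocyte markers for 6 of 7. In whole liver, fewer cells of a type and less RNA per cell cannot be told apart. The actin control probe sets, which show how intact the RNA was, had 3' to 5' ratios of 2.26 to 3.14 in NT-Co, 1.88 to 2.1 in T-Co and 1.79 to 2.16 in T-TSU. The same ratio of Gapdh was alike in the 3 groups, with means of 0.764, 0.765 and 0.767. The part of the actin ratio, and that of the marker levels, in the differences between groups was not tested.

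T-Co replicate 13 stood apart from the other tumour-bearing livers in this pathway, though not in this pathway alone. It had the lowest intensity of the 9 arrays for 18 of the 34 members (52.9%), against 16.2% of all probe sets tested. Over all probe sets the other arrays were lowest for 8.98% to 11.5%. Replicate 13 was also the highest array for 16.4% of all probe sets, where the others were highest for 7.48% to 14%. The mean log2 level of the members, relative to the NT-Co mean, was -0.41 in this array, where T-Co replicates 9 and 10 lay at 0.07 and 0.04 and the T-TSU arrays at 0.12 to 0.20. The gap was wide for the ketone steps, at -1.4 in replicate 13 against -0.09 and -0.22 in replicates 9 and 10, and for the peroxisomal steps, at -0.65 against 0.01 and -0.0018. Values without this array are given beside the counts over members and beside the larger differences that it moved.

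**Figure D1:**
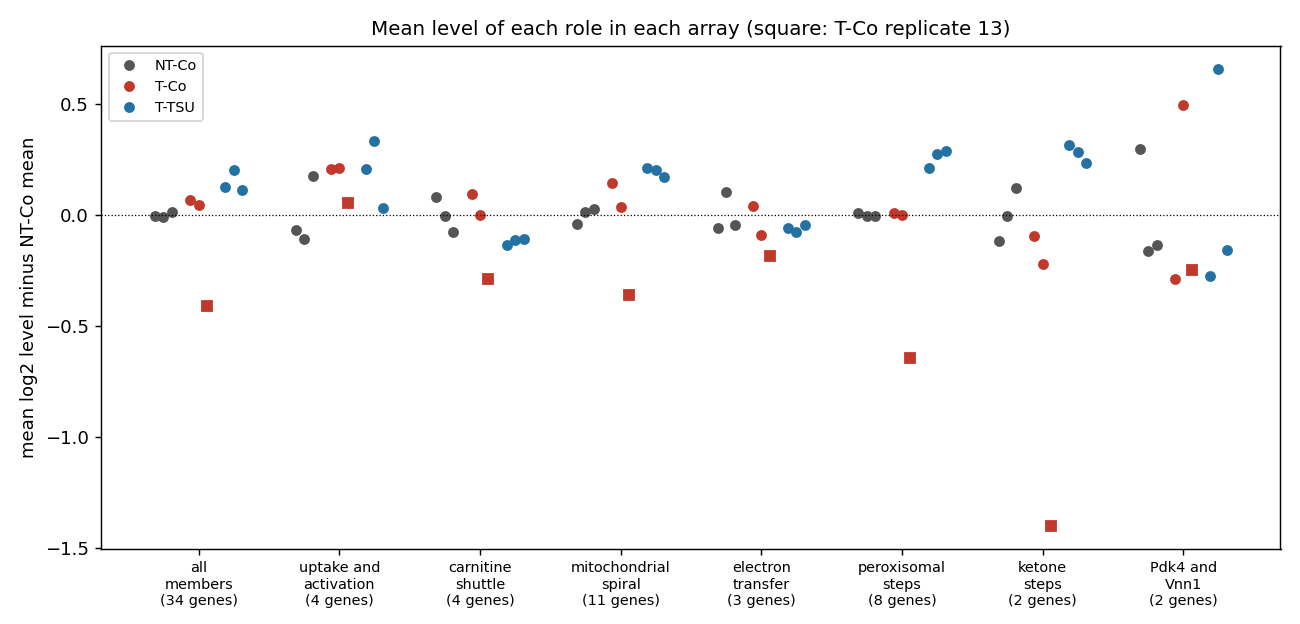
Mean log2 level of the tested members of each role in each array, minus the NT-Co mean of the same genes (vertical axis, log2 units), with NT-Co, T-Co and T-TSU in separate colours and T-Co replicate 13 as a square. For all members the square lies at -0.41, and for the ketone steps at -1.4, while the T-TSU arrays lie above 0 for the mitochondrial, peroxisomal and ketone steps.

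Livers of T-Co and NT-Co mice were compared to ask how the organ differs when a tumour grows elsewhere in the body. A few genes at the entry and the edges of the pathway changed, while the core of the mitochondrial spiral did not pass the test. Cd36, a fatty acid translocase of the cell membrane, rose 2.71-fold, Cpt1a rose 1.78-fold, and Eci2, an enoyl-CoA isomerase of peroxisomes and mitochondria needed for unsaturated fatty acids, rose 1.78-fold. Ehhadh, the bifunctional enzyme of peroxisomal beta-oxidation, fell to 0.452 of its NT-Co level. By limma with Benjamini-Hochberg adjustment over 15838 probe sets, 3 of the 34 members were called higher and 1 lower at an adjusted p under 0.05, where 6.59% of all probe sets were called (4.19% higher and 2.39% lower). The members' share of 11.8% rests on 4 genes. It counts each gene by its brightest probe set, while the share of all counts every probe set tested, and so in the later comparisons. The median log2 difference of the members was -0.11, against 0.0072 over all probe sets.

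The 250 bases before the start of these 4 genes are shown to let the upstream sequence be read beside the change. They come from RefSeq (GRCm38.p6), and each is written in the direction of transcription. Capitals mark matches on either strand to the hexamer AGGTCA, or to a direct repeat of it (AGGTCA, then any base N, then AGGTCA) with at most 2 mismatches in its 12 fixed letters. This repeat, called DR1, is the form that PPAR and RXR bind, and the hexamer is part of it, so matches to both can overlap.

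Cd36, chr5:17835897-17836146, minus strand: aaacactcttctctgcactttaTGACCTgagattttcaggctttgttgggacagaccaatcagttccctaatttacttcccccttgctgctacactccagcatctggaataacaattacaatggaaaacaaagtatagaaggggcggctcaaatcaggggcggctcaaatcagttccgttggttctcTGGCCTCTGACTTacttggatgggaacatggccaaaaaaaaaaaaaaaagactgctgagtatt

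Cpt1a, chr19:3323051-3323300, plus strand: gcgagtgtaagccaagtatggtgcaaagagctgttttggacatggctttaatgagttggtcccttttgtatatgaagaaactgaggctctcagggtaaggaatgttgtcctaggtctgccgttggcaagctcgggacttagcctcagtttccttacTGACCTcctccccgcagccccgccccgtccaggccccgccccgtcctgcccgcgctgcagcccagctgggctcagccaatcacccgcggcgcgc

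Eci2, chr13:34994145-34994394, minus strand: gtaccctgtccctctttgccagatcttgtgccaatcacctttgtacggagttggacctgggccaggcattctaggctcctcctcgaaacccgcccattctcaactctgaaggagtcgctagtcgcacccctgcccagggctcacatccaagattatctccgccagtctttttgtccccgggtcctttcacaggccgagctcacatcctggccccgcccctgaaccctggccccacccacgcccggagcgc

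Ehhadh, chr16:21787835-21788084, minus strand: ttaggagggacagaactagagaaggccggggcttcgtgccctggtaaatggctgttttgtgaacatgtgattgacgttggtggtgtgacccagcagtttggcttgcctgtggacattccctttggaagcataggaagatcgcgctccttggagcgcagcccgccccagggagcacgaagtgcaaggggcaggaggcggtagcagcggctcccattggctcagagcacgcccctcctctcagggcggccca

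In the window of Cd36 a DR1 match with 2 mismatches begins 63 bases before the start, and a hexamer lies further upstream. The window of Cpt1a holds 1 hexamer and no DR1 match, and those of Eci2 and Ehhadh hold neither. Among the 29 members found among these promoters, 4 had a DR1 match in this window (13.8%), namely Cd36, Fabp1, Echs1 and Etfa, beside 3.24% of all 32851 promoters. Members were counted by gene, with Acsl1 among the 29, while the share of all counts each promoter. The hexamer was found in 7 of the 29 (24.1%), beside 14% of all promoters. Of these genes Cd36 and Cpt1a were called in a comparison. A match is a run of letters and does not show binding.

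Among the genes of uptake, binding and activation, 1 of 4 was called. Cd36 had intensities of 351.2, 366.6 and 476.4 in the NT-Co arrays, 924.5, 940.2 and 1457 in the T-Co arrays and 635.8, 1220 and 565.2 in the T-TSU arrays. Every tumour-bearing liver lay above every liver without tumour. The log2 difference of T-Co from NT-Co was 1.44 ± 0.27 (SE, adjusted p = 0.00923 by limma), and it was 1.22 with adjusted p = 0.03 without T-Co replicate 13. A second probe set of Cd36 rose by 1.80 ± 0.26 (adjusted p = 0.00221), while the dimmest one differed by 0.11 ± 0.34. Without the intensity trend in the variance the adjusted p of the brightest was 0.0501. Cd36 is also made by endothelial cells and macrophages, whose marker sums are given above. Fabp1, the liver fatty acid binding protein, had 36850, 37690 and 43520 in NT-Co against 33020, 33030 and 18450 in T-Co, without overlap. Its difference of -0.53 ± 0.18 was not called (adjusted p = 0.111; 0.0498 after quantile normalization), and it was -0.25 (adjusted p = 0.165) without T-Co replicate 13. Acsl5, an acyl-CoA synthetase, was lower in every T-Co array too (-0.50 ± 0.17, adjusted p = 0.104), and Slc27a2, a very long chain acyl-CoA synthetase and transporter, differed by 0.22 ± 0.13.

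In the carnitine shuttle Cpt1a was called and its partner Cpt2 was not. Cpt1a had 2612, 2635 and 2247 in the NT-Co arrays, 4904, 6199 and 2887 in the T-Co arrays and 4720, 5164 and 5935 in the T-TSU arrays. T-Co replicate 13 lay just above the NT-Co arrays, and the other T-Co and all T-TSU arrays lay far above them. The log2 difference of T-Co from NT-Co was 0.83 ± 0.22 (adjusted p = 0.0431). It was 1.14 (adjusted p = 0.00151) without T-Co replicate 13, and the adjusted p lay between 0.0526 and 0.151 when any other array was left out. The other probe sets of Cpt1a, both of a kind that can share signal with other transcripts, differed by -0.45 ± 0.76 and 0.19 ± 0.28, and the mean of the 3 gave 0.19 (adjusted p = 0.826). Cpt2, which releases acyl-CoA inside mitochondria, had 2516, 2497 and 2361 in NT-Co and 2032, 1772 and 1751 in T-Co, lower in all 3 arrays, with a difference of -0.41 ± 0.13 that was not called (adjusted p = 0.0744). Crot, the peroxisomal carnitine octanoyltransferase, had 9559, 10330 and 8672 in NT-Co and 8674, 4843 and 3533 in T-Co. Replicate 9 was level with NT-Co and the other T-Co arrays lay well below. The difference of -0.84 ± 0.26 was not called (adjusted p = 0.0722), and it was -1.20 (adjusted p = 0.00459) without T-Co replicate 9 and -0.55 (0.193) without replicate 13. Crat, the carnitine acetyltransferase, differed by 0.17 ± 0.26.

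None of the 11 members of the mitochondrial spiral was called by its brightest probe set (1 had an unadjusted p under 0.05), and their log2 differences ran from -0.31 to 0.31, 5 above 0 and 6 below. The acyl-CoA dehydrogenases, which open each turn for chains of decreasing length, differed by 0.02 ± 0.13 (Acadvl), -0.31 ± 0.15 (Acadl), 0.15 ± 0.15 (Acadm) and 0.15 ± 0.15 (Acads). The trifunctional protein subunits Hadha and Hadhb differed by 0.08 ± 0.11 and -0.09 ± 0.15, and the short-chain hydroxyacyl-CoA dehydrogenase Hadh by -0.26 ± 0.15. The brightest probe set of Hadh is of a kind that can share signal, and its next brightest had the other sign (0.17 ± 0.15). The 95% intervals of Acadvl (-0.27 to 0.31) and Hadha (-0.17 to 0.32) show how large a change in either direction these arrays could miss. Echs1, the short-chain enoyl-CoA hydratase, had the highest difference (0.30 ± 0.14, adjusted p = 0.212), and the thiolase Acaa2 differed by -0.14 ± 0.11. The brightest probe set of Acaa2 is also of a kind that can share signal, and its others differed by 0.12 ± 0.16 and -0.09 ± 0.11. Decr1, the dienoyl-CoA reductase for unsaturated chains, differed by -0.27 ± 0.16 by its brightest probe set. Its second probe set fell, from 646.9, 606.2 and 698.2 in NT-Co to 380.9, 410.6 and 242.2 in T-Co (-0.93 ± 0.19, adjusted p = 0.0134). The probe sets of Decr1 thus gave different sizes. Eci1, the mitochondrial isomerase, differed by -0.28 ± 0.20. Leaving out T-Co replicate 13 brought Acadl to -0.13, Hadh to -0.05 and Decr1, by its brightest probe set, to -0.05, and turned the sign of Hadhb (0.08) and Eci1 (0.02). Of electron transfer, Etfa (-0.05 ± 0.12) and Etfb (0.16 ± 0.10), the flavoprotein subunits, and Etfdh, which passes their electrons to ubiquinone (-0.35 ± 0.12, adjusted p = 0.0997), were not called.

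The peroxisomal members moved in both directions, with Eci2 called higher and Ehhadh lower among 8. Eci2 had 3608, 2981 and 2814 in the NT-Co arrays, 5392, 6055 and 5244 in the T-Co arrays and 4341, 5872 and 4295 in the T-TSU arrays. The lowest tumour-bearing liver lay above the highest liver without tumour. The log2 difference of T-Co from NT-Co was 0.83 ± 0.15 (adjusted p = 0.00622), and it kept its call under each of 19 alternative settings, with adjusted p between 0.00392 and 0.047. Ehhadh had 4775, 3371 and 3787 in the NT-Co arrays, 2503, 2014 and 1109 in the T-Co arrays and 3962, 2205 and 4105 in the T-TSU arrays. All T-Co arrays lay below all NT-Co arrays, replicate 13 the furthest. The difference was -1.15 ± 0.29 (adjusted p = 0.0359). Without T-Co replicate 13 it was -0.81 (adjusted p = 0.0888), and the call was also lost without NT-Co replicate 8 (0.136), 10 (0.0573) or 11 (0.1), without T-Co replicate 10 (0.0546), without the intensity trend (0.113) and with a robust trend (0.0684).

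The peroxisomal thiolases, which close each turn, were lower in T-Co without passing the test. Acaa1b had 21270, 20880 and 25160 in NT-Co and 16980, 12820 and 4146 in T-Co. No T-Co array reached the NT-Co range, and replicate 13 lay far below the rest. Its difference of -1.21 ± 0.37 was not called (adjusted p = 0.0717). Without T-Co replicate 13 the difference was smaller, -0.60, and passed (adjusted p = 0.0213), and without T-Co replicate 9 it was -1.61 (0.0183). Acaa1a had 583.1, 1104 and 758.8 in NT-Co and 581.8, 416.5 and 436.8 in T-Co, with a difference of -0.73 ± 0.22 (adjusted p = 0.0711; 0.0426 without NT-Co replicate 8). Its second probe set differed by -0.32 ± 0.28, with overlap. Acaa1a and Acaa1b are close paralogs, and both probe sets of Acaa1a are of a kind that can share signal. Decr2, the peroxisomal dienoyl-CoA reductase, had 1024, 822.3 and 943.5 in NT-Co and 1552, 1934 and 858.5 in T-Co, so replicate 13 fell within NT-Co and the others lay above. Its difference was 0.56 ± 0.24 (adjusted p = 0.183), and 0.90 (adjusted p = 0.00639) without replicate 13. Hsd17b4, the other peroxisomal bifunctional enzyme (-0.20 ± 0.12), Ech1, a dienoyl-CoA isomerase (0.05 ± 0.14), and Pex11a, which promotes peroxisome division (0.14 ± 0.19), were not called.

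Neither ketone gene was called. Bdh1, which interconverts acetoacetate and beta-hydroxybutyrate, had 4156, 4178 and 5138 in the NT-Co arrays, 4201, 4054 and 1111 in the T-Co arrays and 6286, 6445 and 5465 in the T-TSU arrays. T-Co replicates 9 and 10 were level with NT-Co, and replicate 13 alone was low. The difference was -0.74 ± 0.38 (adjusted p = 0.275), and -0.11 (adjusted p = 0.699) without replicate 13. Acat1, the mitochondrial acetoacetyl-CoA thiolase, had 9420, 10920 and 10610 in the NT-Co arrays, 9636, 8358 and 5909 in the T-Co arrays and 11350, 10550 and 11680 in the T-TSU arrays. The difference of -0.40 ± 0.15 was not called (adjusted p = 0.152). Replicate 13 was again the lowest array, and without it the difference was -0.20 (adjusted p = 0.369). Of the PPARalpha-regulated genes outside the spiral, Pdk4, the kinase that shuts off pyruvate dehydrogenase, was dim, at 107.9, 83.48 and 112.7 in the NT-Co arrays, 35.25, 94.74 and 70.21 in the T-Co arrays and 28.16, 33.29 and 52.45 in the T-TSU arrays (-0.63 ± 0.41 for T-Co against NT-Co). Vnn1, a pantetheinase, was dim as well and differed by 0.60 ± 0.48. For these dim probe sets the size of a difference on this scale is understated.

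**Figure D2:**
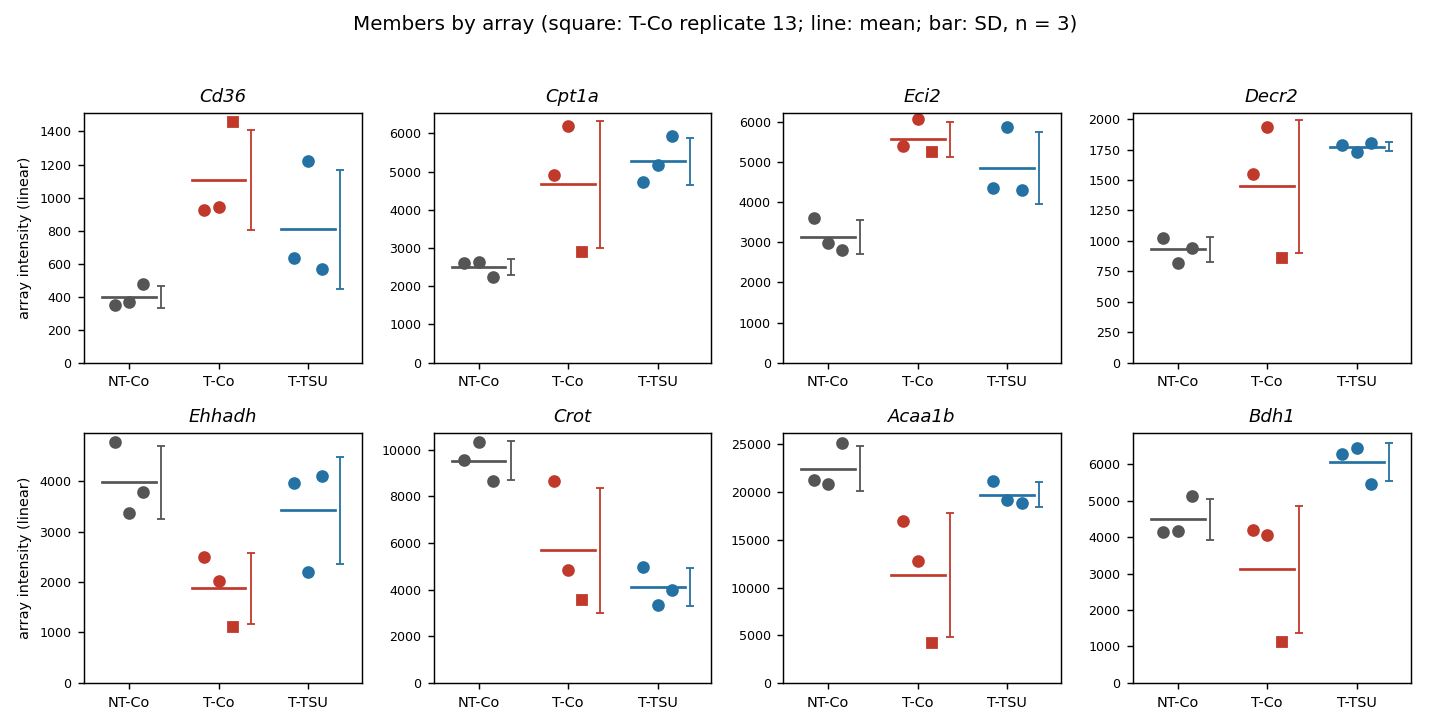
Linear array intensity (vertical axis, from 0) of 8 members in every array by group, with T-Co replicate 13 as a square, the group mean as a line and the SD as a bar (n = 3). Cd36 and Eci2 are higher in every T-Co and T-TSU array than in any NT-Co array, while the square is the lowest T-Co value for Cpt1a, Eci2, Decr2, Ehhadh, Crot, Acaa1b and Bdh1.

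Across the members the T-Co and NT-Co arrays did not overlap for 4 genes that were higher and 8 that were lower in T-Co, where 14.4% and 12.5% of all probe sets did so. An unadjusted p under 0.05 was reached by 14 of the 34, beside 22.3% of all probe sets. Without T-Co replicate 13 the counts were 11 and 8, against 18.9% and 16.9% of all probe sets, and the median difference was -0.02. The number of members above 0 was 15 of 34 with the array, where 50.8% of all probe sets were above 0, and 16 without it.

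T-TSU livers were set beside T-Co livers to ask what the inhibitor did in mice with a tumour. No member was called. Most differences were above 0, small in the mitochondrial spiral and larger for the peroxisomal thiolases and Bdh1. Bdh1 was 2.27-fold, Acaa1a 2.1-fold, Acaa1b 2.04-fold and Ehhadh 1.85-fold as high in T-TSU as in T-Co, with no adjusted p under 0.126. Much of this went with T-Co replicate 13: without it the log2 differences went from 1.18 to 0.55 for Bdh1, from 1.03 to 0.42 for Acaa1b and from 0.89 to 0.55 for Ehhadh, while Acaa1a went from 1.07 to 1.01. The second probe set of Acaa1a differed by 0.22 ± 0.28. By limma 0 of 34 members were called, and 8 had an unadjusted p under 0.05 (10.5% of all probe sets did). In this comparison 0.0505% of all probe sets were called (0.0379% higher and 0.0126% lower). The log2 difference was above 0 for 27 of the 34 members, where 48.7% of all probe sets were above 0, and the median was 0.22 against -0.0085 over all probe sets. The arrays did not overlap for 7 members, all higher in T-TSU, where 6.76% of all probe sets were higher without overlap and 7.4% lower.

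These 7 were Fabp1, Hadh, Decr1, Acaa1a, Acaa1b, Acat1 and Bdh1. For Bdh1 the lowest T-TSU array (5465) lay above the highest T-Co array (4201), with a difference of 1.18 ± 0.38 (adjusted p = 0.311). For Acat1 the difference was 0.52 ± 0.15 (adjusted p = 0.267), and its other probe sets gave 0.52 and 0.57. Acaa1a had 880.9, 1078 and 1054 in T-TSU, above all T-Co arrays, and a difference of 1.07 ± 0.22 (adjusted p = 0.126). Its second probe set differed by only 0.22 ± 0.28 (adjusted p = 0.836), with overlap. Acaa1b had 21210, 19130 and 18820 (1.03 ± 0.37, adjusted p = 0.351), and Fabp1 had 42380, 38810 and 37920 (0.54 ± 0.18, adjusted p = 0.327). These T-TSU values lay within or near the NT-Co range. Decr1 had 4936, 4533 and 4966 in T-TSU against 3996, 3861 and 2490 in T-Co (0.51 ± 0.16, adjusted p = 0.311), and its second probe set differed by 0.91 ± 0.19 (adjusted p = 0.129). Hadh differed by 0.36 ± 0.15 (adjusted p = 0.433), and by 0.15 ± 0.15 with overlap in its next brightest probe set. With T-Co replicate 13 left out, the differences were 0.55 for Bdh1, 0.32 for Acat1, 0.42 for Acaa1b, 0.26 for Fabp1, 0.29 for Decr1 and 0.14 for Hadh, and 1.01 for Acaa1a, none of them called.

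All 11 members of the mitochondrial spiral had a difference above 0, from 0.11 to 0.51, and none was called (the smallest adjusted p was 0.311, and 2 had an unadjusted p under 0.05). When T-Co replicate 13 was left out they ran from -0.01 (Acadm) to 0.29 (Decr1), with Acaa2 and Eci1 at 0.0098 and 0.02. Acadl, for example, had 4143, 3789 and 2725 in T-Co and 4634, 4039 and 4369 in T-TSU, with overlap (0.31 ± 0.15, and 0.13 without that array). The members with a difference below 0 included Cd36 (-0.51 ± 0.27), Crot (-0.39 ± 0.26), Pdk4 (-0.65 ± 0.41) and Eci2 (-0.21 ± 0.15), none of them called. Cpt1a differed by 0.24 ± 0.22, with an interval of -0.24 to 0.72, and by -0.07 without T-Co replicate 13. Without it Cd36 differed by -0.29 and Crot by -0.68. Without T-Co replicate 13, 23 of 34 members were above 0, the median was 0.09, and 7 were higher and 1 lower without overlap, beside 10.2% and 11.3% of all probe sets. The T-Co arrays also enter the comparison with NT-Co, so these 2 comparisons are not independent.

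**Figure D3:**
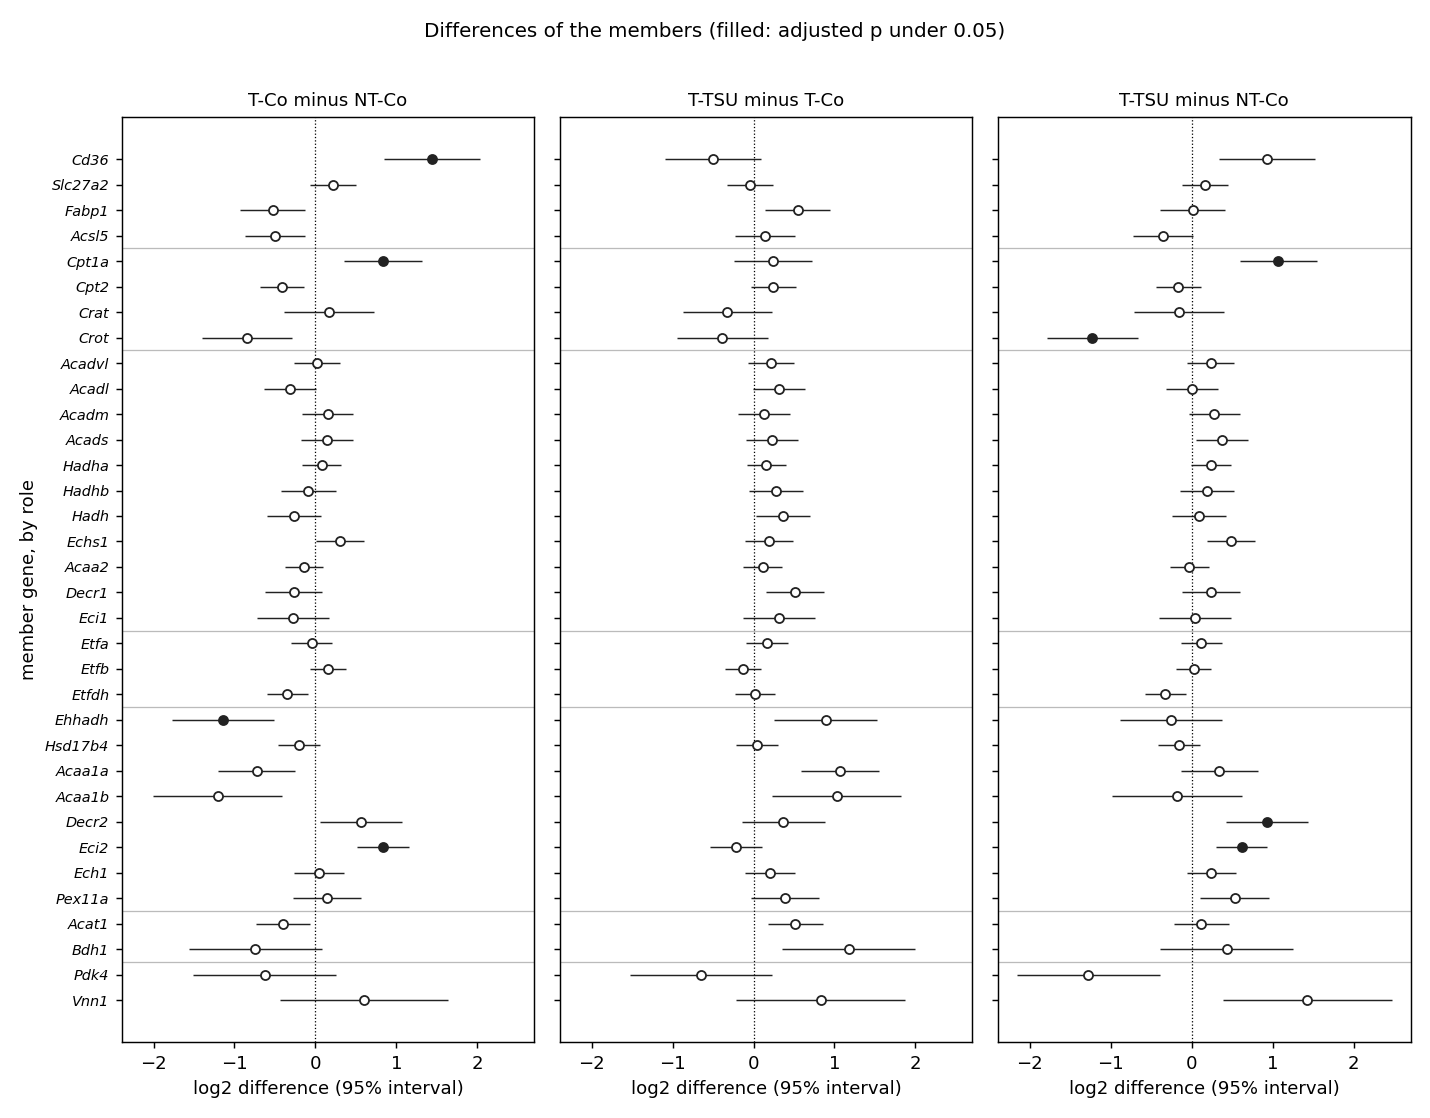
Log2 difference of each of the 34 members (horizontal axis, with 95% intervals from limma) in the 3 comparisons, ordered by role, with filled points for an adjusted p under 0.05. Filled points are Cd36, Cpt1a, Eci2 and Ehhadh for T-Co minus NT-Co, none for T-TSU minus T-Co, and Cpt1a, Crot, Decr2 and Eci2 for T-TSU minus NT-Co, and all 11 mitochondrial members lie above 0 in the middle panel, where leaving out T-Co replicate 13 takes Acadm to -0.01 and Acaa2 and Eci1 to 0.0098 and 0.02.

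The comparison of T-TSU with NT-Co sets livers with tumour and inhibitor beside livers with neither, and uses no T-Co level. Cpt1a was 2.1-fold, Decr2 1.91-fold and Eci2 1.53-fold higher in T-TSU, and Crot fell to 0.427 of its NT-Co level. Of the 8 members lower in every T-Co array, Fabp1, Acsl5, Cpt2, Acadl, Ehhadh, Acaa1a and Acaa1b overlapped with NT-Co here. Etfdh stayed below NT-Co in every T-TSU array. By limma 3 of 34 members were called higher and 1 lower (11.8%), and 11 had an unadjusted p under 0.05 (16.9% of all probe sets did), where 3.93% of all probe sets were called (2.56% higher and 1.37% lower). The median log2 difference of the members was 0.14 (-0.00066 over all probe sets), and 23 of 34 were above 0 (49.9% of all probe sets).

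Cpt1a differed by 1.07 ± 0.22 (adjusted p = 0.0177), its lowest T-TSU array (4720) far above its highest NT-Co array (2635). The call was lost without NT-Co replicate 8 (adjusted p = 0.0552) or 11 (0.0816), without T-TSU replicate 12 (0.0621) or 14 (0.0871) and without the intensity trend (0.0892), and the mean of its 3 probe sets gave 0.67 (0.435). Decr2 had 1789, 1730 and 1804 in T-TSU, a narrow range well above NT-Co. Its difference of 0.93 ± 0.24 was called at an adjusted p of 0.048, close to the threshold, and 12 of 19 alternative settings lost the call, among them leaving out any array of the 2 groups (0.0979 to 0.15), leaving out T-Co replicate 9 (0.057) and quantile normalization (0.0613). Eci2 differed by 0.62 ± 0.15 (adjusted p = 0.0361), and was not called without NT-Co replicate 10 (0.116) or 11 (0.152), without T-TSU replicate 12 (0.132) or 14 (0.0625), or without the intensity trend (0.129). Crot had 4980, 3351 and 3983 in T-TSU, all below the lowest NT-Co array (8672). Its difference was -1.23 ± 0.26 (adjusted p = 0.0193), and leaving out any NT-Co array (0.0537 to 0.0709), T-TSU replicate 12 (0.0911) or 14 (0.0789), or the intensity trend (0.0961), ended the call. Cd36 lay above NT-Co in every T-TSU array (0.93 ± 0.27, adjusted p = 0.0873), and its second probe set was called (1.39 ± 0.26, adjusted p = 0.0114).

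The T-TSU arrays lay above all NT-Co arrays for 14 of the 34 members and below them for 3, where 12.7% and 11.6% of all probe sets did so. The 14 included 6 of the 11 mitochondrial members, Acadvl, Acadm, Acads, Hadha, Echs1 and Decr1. Decr1 is among them by its brightest probe set, and its second one differed by -0.02 ± 0.19 (adjusted p = 0.971), with overlap. Hadha, for instance, had 3535, 3251 and 3605 in NT-Co and 4159, 3972 and 4105 in T-TSU, a small difference of 0.24 ± 0.11 (adjusted p = 0.316). Acads had 1561, 1647 and 1850 against 2186, 2205 and 2138 (0.37 ± 0.15, adjusted p = 0.222). Echs1 had 3282, 4438 and 3517 against 5375, 5008 and 5284, with the largest difference of the 11 (0.49 ± 0.14, adjusted p = 0.0678; 0.047 after quantile normalization and 0.0409 without NT-Co replicate 10). None of the 11 was called, with 2 at an unadjusted p under 0.05. The rest of the 14 were Cd36, Cpt1a, Decr2, Eci2, Ech1 (0.24 ± 0.14), Pex11a (0.53 ± 0.19), Bdh1 (0.44 ± 0.38) and Vnn1 (1.43 ± 0.48). Vnn1 had 156.4, 102.6 and 78.68 in NT-Co and 231.6, 755.2 and 160.4 in T-TSU, with T-TSU replicate 12 far above the rest. Across 19 alternative settings its difference ran from 0.79 to 1.88. The members below NT-Co in every T-TSU array were Crot, Etfdh (-0.33 ± 0.12, adjusted p = 0.161) and Pdk4 (-1.28 ± 0.41, adjusted p = 0.114). Pdk4 and Vnn1, the members listed as PPARalpha-regulated outside the spiral, were thus on opposite sides of NT-Co, and neither was called.

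Where a member had several tested probe sets, they did not always give one direction. For 14 genes there were 19 further probe sets, of which 14 had the sign of the brightest for T-Co against NT-Co, 17 for T-TSU against T-Co and 12 for T-TSU against NT-Co. Of the 19, 2 were called for T-Co against NT-Co (Cd36 and Decr1), 0 for T-TSU against T-Co and 1 for T-TSU against NT-Co (Cd36).

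Other genes of fatty acid uptake, oxidation, peroxisomes and their regulation were read from a list of 84, of which 65 were tested. For T-Co against NT-Co 3 of the 65 were called higher and 6 lower (6.59% of all probe sets were called). Plin2, the lipid droplet coat protein, fell in every tumour-bearing liver, from 6293, 7233 and 6786 in NT-Co to 2963, 2668 and 2464 in T-Co and 4328, 3148 and 3376 in T-TSU. The log2 difference of T-Co was -1.33 ± 0.14 (adjusted p = 0.000435) and that of T-TSU from NT-Co -0.91 ± 0.14 (0.00327), and both calls held under all 19 alternatives. Among the peroxisomal genes, Nudt7, a coenzyme A hydrolase, fell from 12920, 16280 and 17270 to 7123, 5032 and 3394 (-1.63 ± 0.29, adjusted p = 0.00663), and this call also held under all 19. A dimmer second probe set of Nudt7 differed by -0.86 ± 0.33 (adjusted p = 0.145), with overlap. Amacr, the racemase for branched-chain acyl-CoA, fell from 5465, 5435 and 5471 to 3187, 3989 and 2697 (-0.75 ± 0.16, adjusted p = 0.0157). Abcd3, an acyl-CoA transporter of the peroxisomal membrane, fell from 9972, 10080 and 10440 to 8134, 7289 and 6895 (-0.45 ± 0.10, adjusted p = 0.0211). Both lost their calls without NT-Co replicate 8 or 11 or without the intensity trend, and Abcd3 also without NT-Co replicate 10 (adjusted p up to 0.0751 for Amacr and 0.101 for Abcd3). Pex5, the import receptor for peroxisomal matrix proteins, rose from 365.2, 381 and 434.7 to 541.1, 705.8 and 857.3 (0.80 ± 0.18, adjusted p = 0.0193; up to 0.0792 without NT-Co replicate 8 or 10 or T-Co replicate 13). The deacetylase Sirt1 rose by 0.82 ± 0.20 (adjusted p = 0.0318), from 171.5, 195.2 and 139.9 to 258.8, 277.9 and 382.7, and lost its call without NT-Co replicate 8 or 11 or T-Co replicate 13 (adjusted p up to 0.136).

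Ppargc1a, a coactivator of PPARalpha, is named here after its values were seen, because its probe sets differed in their calls. Its brightest probe set, which stands for it in the count, was not called between T-Co and NT-Co (1.29 ± 0.43, adjusted p = 0.0967), while 3 of its 4 others were, and all 5 were above 0. The next brightest of these had 131.6, 73.38 and 69.58 in NT-Co against 272.2, 430.1 and 297.2 in T-Co (1.80 ± 0.27, adjusted p = 0.00276). Another rose from 5.649, 8.226 and 14.97, near background, to 349.1, 682 and 397.8 (4.76 ± 0.34, adjusted p = 5.44e-05), and was also called for T-TSU against NT-Co (3.27 ± 0.34, adjusted p = 0.000471). For the remaining called one the difference was 2.08 ± 0.48 (adjusted p = 0.0229).

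For T-TSU against T-Co none of the 65 was called by limma (18 had an unadjusted p under 0.05). The smallest p were those of Pdk1, a pyruvate dehydrogenase kinase (0.84 ± 0.20, adjusted p = 0.169), Fabp2, a fatty acid binding protein (1.25 ± 0.30, adjusted p = 0.176), and Ivd, a dehydrogenase of leucine breakdown (0.54 ± 0.13, adjusted p = 0.185). By its brightest probe set each was higher in all 3 T-TSU arrays than in any T-Co array. The second probe set of Pdk1, about as bright, differed by -0.0008 ± 0.22, with overlap. For T-TSU against NT-Co 1 was called higher and 3 lower (6.15% of the 65, against 3.93% of all probe sets). The one that rose was Ppara itself, which had 1309, 1213 and 1227 in the NT-Co arrays, 1846, 3637 and 1181 in the T-Co arrays and 4489, 4005 and 3000 in the T-TSU arrays. The T-Co arrays spread from the NT-Co level to the T-TSU level, with replicate 13 at the bottom, and the T-TSU arrays lay apart from NT-Co. The log2 difference of T-TSU from NT-Co was 1.59 ± 0.31 (adjusted p = 0.0122), and 0.67 ± 0.31 for T-Co (adjusted p = 0.219). The call for T-TSU was lost without NT-Co replicate 11, T-TSU replicate 12 or the intensity trend, with adjusted p up to 0.0721. Beside Plin2, the genes that fell were Hacl1, a peroxisomal lyase of alpha-oxidation, from 7913, 8570 and 7307 to 3666, 4191 and 4349 (-0.96 ± 0.17, adjusted p = 0.0072), and Acox2, the branched-chain acyl-CoA oxidase, from 5971, 5942 and 5632 to 3946, 3503 and 4023 (-0.61 ± 0.13, adjusted p = 0.0198). Acox2 lost its call without any 1 NT-Co array or T-TSU replicate 12 or 14, or without the intensity trend (adjusted p up to 0.0983). For Hacl1 and Acox2 the T-TSU arrays also lay below all T-Co arrays, without a call in that comparison (adjusted p = 0.284 and 0.285).

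**Figure D4:**
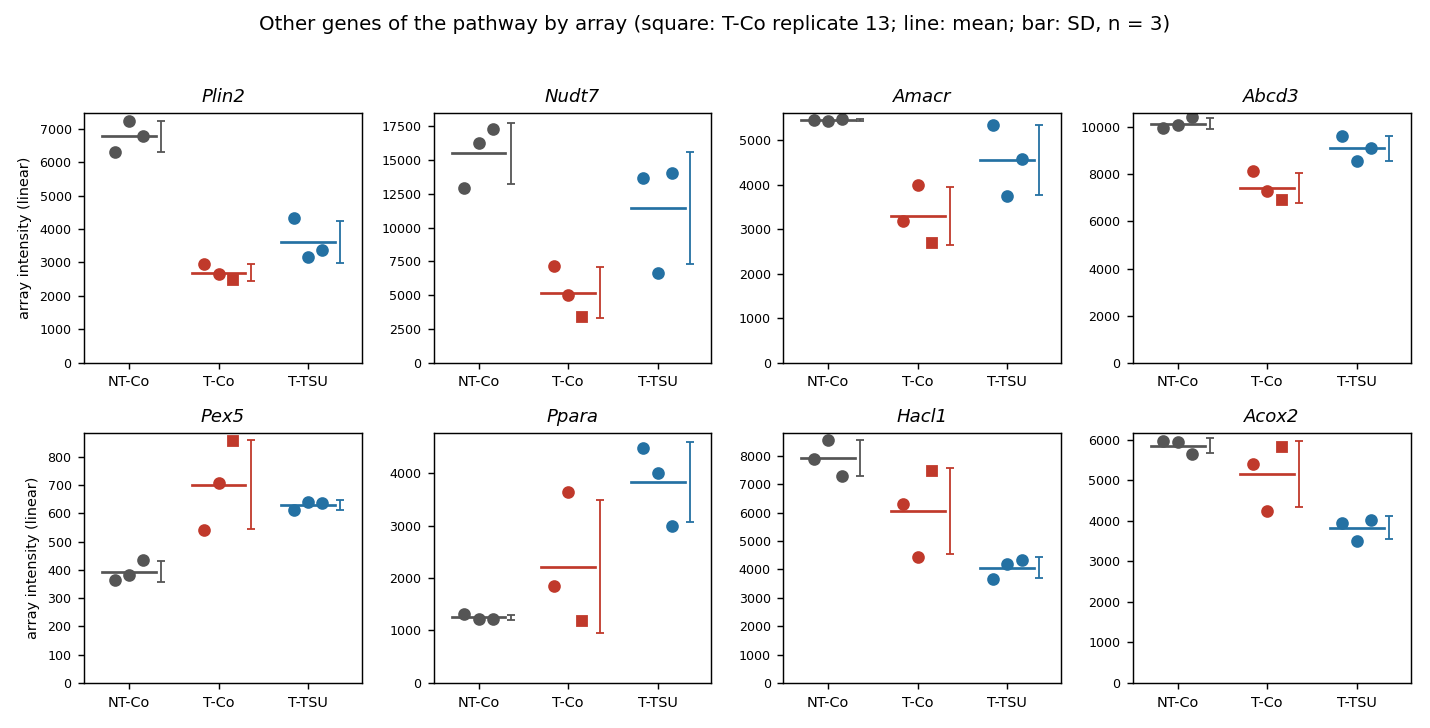
Linear array intensity (vertical axis, from 0) of 8 other genes of the pathway in every array by group, with T-Co replicate 13 as a square, the group mean as a line and the SD as a bar (n = 3). Plin2 is lower in all tumour-bearing livers than in NT-Co, Ppara is highest in T-TSU and spread in T-Co, and Hacl1 and Acox2 are lowest in T-TSU.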

How the data were processed

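Liver RNA was measured on 9 Affymetrix arrays. The deposited values are linear intensities, 1 per probe set and array. The sources used here do not name the authors' summarisation method. With the 2% highest and lowest values set aside, all 9 arrays averaged 500.3, so the deposited intensities were already scaled. Of 22690 probe sets 64 were controls, and of the other 22626 the platform annotation gave 20380 a single gene, 691 several and 1555 none. Names come from that annotation, and 0 symbols differed from RefSeq.

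Log2 values were taken after adding 7.931, the 10th percentile of intensity, which understates differences of dim genes. Probe sets with a mean under the 30th percentile (42.03) were left out, leaving 15838. One model with a mean per group covered the 9 arrays (limma 3.58.1 on R 4.3.3, lmFit, then eBayes allowing an intensity trend, 6 residual degrees of freedom). Two-sided p-values were adjusted by Benjamini-Hochberg across the 15838, with 0.05 as the threshold, and errors are the fit's SE. Precision is limited by the number of arrays. The pipeline was tested on simulated data. No batch is given. The largest number of equal values shared by 2 arrays was 1, so no array repeats another.

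All members are named; of the wider list, up to 6 called genes with the smallest p in a comparison, or 3 where none was called. The members, lists and rules were chosen with earlier results of these data known. Alternatives changed the pseudocount, filter, normalization, variance model, arrays fitted and the probe set that stands for a gene. Motifs were searched in the RefSeq promoter table (GRCm38.p6). The intensity table holds no coordinates.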

Additional observations from a re-analysis of the deposited data

How the results depend on the processing

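The limits are 3 arrays a group and many differences near the threshold. Of 8 called member differences in the 3 comparisons, each recomputed under 19 alternatives, 102 of 152 recomputed values kept the call, 50 lost it and 0 changed sign. A fit with an array left out has fewer samples by construction, and the cause of the losses was not tested. Of 94 uncalled differences 6 gained a call under some alternative. No paired analysis was possible because the groups share only replicate number 10, in NT-Co and T-Co. Median centring and quantile normalization moved the median of all probe sets by less than 0.1 on the log2 scale. Counts are given as higher and lower.

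Without the intensity trend, probe sets called numbered 317 and 153 for T-Co against NT-Co (664 and 379 in the reported fit), 0 and 0 for T-TSU against T-Co (6 and 2), while T-TSU against NT-Co gave 186 and 76 (405 and 217). Members called were 1 and 0 for T-Co against NT-Co, while T-TSU against NT-Co gave 0 and 0, and genes of the wider list 0 and 2, and 0 and 1. For T-TSU against T-Co, probe sets called numbered 19 and 7 with a pseudocount of 32, 0 and 0 without the filter, 1 and 0 after quantile normalization, 0 and 0 with centred arrays, 10 and 5 with a robust trend, and 0 and 0 with only the arrays compared. Members called lower for T-Co against NT-Co numbered 2 after quantile normalization and 0 with a robust trend. For T-TSU against NT-Co, genes of the wider list called higher numbered 3 with the filter at the median probe set, 2 with a robust trend and 4 (5 lower) with only the arrays compared, where 366 probe sets were called lower.

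With 1 array left out, probe sets called for T-Co against NT-Co ran from 322 to 643 higher and 129 to 388 lower, the fewest without NT-Co replicate 11. For T-TSU against T-Co they ran from 0 to 36 and 0 to 23, the most without T-TSU replicate 12, while T-TSU against NT-Co gave 202 to 487 and 86 to 317. Members called ran from 2 to 4 higher and 0 to 3 lower for T-Co against NT-Co, 0 and 0 for T-TSU against T-Co, while T-TSU against NT-Co gave 0 to 3 and 0 to 1. The members' median ran from -0.21 to -0.02, 0.09 to 0.28 and 0.11 to 0.18 in the 3 comparisons. Genes of the wider list called ran from 1 to 4 and 2 to 8, 0 to 1 and 0, and 0 to 3 and 2 to 5. Of the wider list, calls for T-Co against NT-Co were lost under 3 alternatives for Amacr (adjusted p up to 0.0751), 4 for Abcd3 (0.101), 5 for Pex5 (0.0792) and 6 for Sirt1 (0.136), and for T-TSU against NT-Co under 1 for Hacl1 (0.0593, without the intensity trend) and 6 for Acox2 (0.0983).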

Other observations

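Of the 9 genes of the wider list called between T-Co and NT-Co, the naming rule left out 3, which are named here after their values were seen. Abcd2, a peroxisomal transporter of very long chain acyl-CoA, lay at 4.37, 4.137 and 4.048 in the NT-Co arrays, at background, and at 64.46, 97.44 and 90.21 in the T-Co arrays and 6.202, 114.1 and 40.88 in T-TSU. Its log2 difference of 2.91 ± 0.75 (adjusted p = 0.0393 by limma) has an uncertain size because of the background level in NT-Co, and 9 of 18 alternatives lost the call. Fabp2 had 3136, 2542 and 3334 in the NT-Co arrays, 1985, 1790 and 713.9 in the T-Co arrays and 3368, 2822 and 3620 in the T-TSU arrays. It fell in T-Co by 1.12 ± 0.30 on the log2 scale (adjusted p = 0.0439), with no overlap between T-Co and either other group. Cyp4a12a, a fatty acid omega-hydroxylase that male mouse liver expresses, had 7812, 7274 and 8474 in the NT-Co arrays, 3603, 4574 and 879.9 in the T-Co arrays and 8611, 5030 and 7355 in the T-TSU arrays. It fell in T-Co by 1.68 ± 0.45 (adjusted p = 0.0458), and T-Co replicate 13 was the lowest array for both genes. Each of Fabp2 and Cyp4a12a lost its call under 11 of 19 alternatives, with adjusted p up to 0.147 and 0.166.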
